A study of Homo sapiens with 9 samples.

Results

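The replication-dependent histone cluster genes are the genes whose symbols begin with HIST1H, HIST2H, HIST3H or HIST4H. They were taken from the deposited count table by symbol, and 1 symbol of the pseudogene series ending in PS and a number was left out. This gave 72 genes of the 26485 symbols in the table, 58 of them with 10 or more counts summed over the 9 libraries. By histone type there were 6 H1, 17 H2A, 20 H2B, 14 H3 and 15 H4 genes, and GENCODE lists 2 of the 72, HIST2H2BA and HIST2H2BC, as pseudogenes. On GRCh38 the 55 HIST1 genes lie on chromosome 6 between 25726132 and 27893843, the 13 HIST2 and 3 HIST3 genes on chromosome 1, and HIST4H4 on chromosome 12.

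RNA was sequenced from MV4;11, an established human acute myeloid leukaemia line, in 9 untreated libraries grown in RPMI medium. The 3 parental libraries carried unaltered MYC, 3 libraries came from cells whose MYC protein had the K148Q substitution and 3 from cells with K148R. The labels give the mutants the codes Q2 and R14. The sources used here do not say whether each is 1 clone or how the substitutions were made. MYC is a transcription factor of cell growth, and the substitutions put glutamine or arginine in place of a lysine that can be acetylated.

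Histones package DNA into nucleosomes, each built on a core of H2A, H2B, H3 and H4, while H1 binds the linker DNA between them. The clustered genes supply most of the histone for newly copied DNA, and their transcription normally peaks in S phase. Their mRNAs usually carry no poly(A) tail: a short stem-loop, bound by the protein SLBP, marks the 3' end that is cut with the help of the U7 small nuclear RNA. Some clustered genes can also give longer polyadenylated mRNAs, a form known from differentiating and non-dividing cells.

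The 16-base stem-loop is shown first, because it is the element that sets these mRNAs apart from other mRNAs. A script found one in the GENCODE v29 transcript models of 33 of the 72 genes, with the stem's 6 bases on each side in capitals and the 4 loop bases in lower case. The models of the other 39 genes held no match, and many of those models stop at the coding sequence, so no match says only that the letters are not in the model.
form in 17 genes, HIST2H2BE and HIST1H2BH among them: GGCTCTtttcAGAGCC
form in 5 genes, all H4: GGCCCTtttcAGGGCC
form in 5 genes, HIST1H2BC and HIST1H2BD among them: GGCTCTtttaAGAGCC
form in 3 genes, all H4: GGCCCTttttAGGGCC
form in 2 genes, HIST1H2AG and HIST2H2BC: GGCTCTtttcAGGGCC
form in HIST1H3E: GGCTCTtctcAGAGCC
The 2 forms with a GGCCCT arm occurred in 8 models, all of H4 genes. In 24 of the 33 models the transcript ran on for more than 100 bases after the stem-loop, for example by 1729 bases in HIST2H2BE and by 1640 bases in HIST1H2BH.

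The 200 bases before the transcription start are shown for 4 genes on which the results turn. HIST1H2BK had the highest level in every genotype, HIST2H2BE and HIST1H1C rose in both mutants, and HIST1H2BH was the gene called lower in both. The sequences are RefSeq's on GRCh38.p14, read on the gene's strand, and capitals mark matches on either strand to 4 short motifs. These are TATAAA, found near many transcription starts, the box CCAAT bound by the factor NF-Y, the octamer ATTTGCAT bound by the factor OCT1, and the E-box CACGTG bound by MYC with its partner MAX.
HIST1H2BK, chr6:27146856-27147055, minus strand: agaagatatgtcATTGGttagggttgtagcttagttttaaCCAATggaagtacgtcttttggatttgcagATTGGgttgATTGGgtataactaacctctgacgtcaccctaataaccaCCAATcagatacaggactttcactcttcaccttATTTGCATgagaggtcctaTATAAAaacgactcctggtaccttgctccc
HIST2H2BE, chr1:149886683-149886882, minus strand: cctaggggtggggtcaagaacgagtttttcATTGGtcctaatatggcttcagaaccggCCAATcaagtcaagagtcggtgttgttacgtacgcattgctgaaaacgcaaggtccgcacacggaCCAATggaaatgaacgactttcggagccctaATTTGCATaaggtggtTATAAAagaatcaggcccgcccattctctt
HIST1H1C, chr6:26056471-26056670, minus strand: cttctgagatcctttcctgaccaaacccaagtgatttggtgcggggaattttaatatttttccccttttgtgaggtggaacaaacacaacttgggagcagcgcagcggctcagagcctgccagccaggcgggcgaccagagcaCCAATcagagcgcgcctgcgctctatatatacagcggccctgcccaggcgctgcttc
HIST1H2BH, chr6:26251414-26251613, plus strand: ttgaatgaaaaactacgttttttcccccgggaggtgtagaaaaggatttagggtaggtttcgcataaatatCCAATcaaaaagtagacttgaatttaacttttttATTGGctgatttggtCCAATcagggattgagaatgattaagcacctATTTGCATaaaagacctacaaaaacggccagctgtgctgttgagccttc
The 3 H2B promoters each hold an octamer and 3 or more CCAAT boxes. Of the 18 matched H2B promoters 9 held TATAAA, and those without it include HIST1H2BH, called lower, and HIST1H2BC, HIST2H2BF, HIST1H2BI and HIST1H2BO, called higher in K148R cells.

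RefSeq promoters were found for 65 of the 72 genes, and HIST2H2BA, HIST2H2BC, HIST1H4A, HIST1H4C, HIST1H2AH, HIST1H3I and HIST1H3J had no entry. A CCAAT box was present in 55 of 65 (84.6%), against 28.9% of all 27305 promoters of that length. It was in every matched promoter of the H1 (6), H2A (16), H2B (18) and H3 (12) genes, and in 3 of 13 H4 promoters. The octamer was present in 21 (32.3%, against 1.32% of all promoters), 14 of them H2B and 7 H2A genes. TATAAA was present in 39 (60%, against 8.92%), spread over all 5 types. The E-box CACGTG was in none of the 65, against 5.62% of all promoters. These are matches of letters and not measured binding sites.

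Each library held between 13747087 and 18938391 counts. Levels are CPM, read counts scaled to library size with TMM factors, as mean ± SD of 3 libraries unless each library is given. A gene was called changed at an adjusted p under 0.05 (edgeR quasi-likelihood test, Benjamini-Hochberg adjustment over all 12845 genes tested). The chi-square of counts over genes, divided by its degrees of freedom, was 1.53 to 1.61 between parental libraries and 2.98 to 5.15 between K148R libraries (1 is sampling noise alone). K148Q replicate 3 stood apart, at 16.85 and 17.29 from replicates 1 and 2, which differed from each other by 1.33. Nothing in the labels ties replicates to separate cultures, so p-values measure only the spread between libraries, which may be technical. All 11 myeloid markers examined were present in every genotype, among them LYZ, PTPRC, FLT3 and CSF1R. Of the 12 markers of other cell types, 5 were at 0 counts in all libraries, CD3E, MS4A1, PF4 and EPCAM among them. Another 4 had 10 or more counts and were tested. Of these, 1 rose and 2 fell in K148Q cells (27% and 26.3% of all tested genes), and 2 rose and 2 fell in K148R cells (37.8% and 37.3%). The 12 summed to 110 to 114 CPM in the parental, 215 to 222 CPM in the K148Q and 183 to 193 CPM in the K148R libraries, most of it in PECAM1. PECAM1, also found on myeloid cells, was at 98.9 ± 2.25 CPM in parental, 217 ± 3.6 in K148Q and 181 ± 4.86 CPM in K148R libraries.

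Reads of the clustered histone genes were scarce in parental and K148Q cells and about an order of magnitude more frequent in K148R cells. Summed over all 72 genes with no filter, there were 1295 parental, 1449 K148Q and 13485 K148R counts. The summed level was 26.5, 29.7 and 26.5 CPM in the parental libraries, 34.2, 31.1 and 29.1 CPM in the K148Q libraries, against 277, 268 and 274 CPM in the K148R libraries. Every K148R library was above every other library, whereas the lowest K148Q library lay below the highest parental one. The means were 27.6 ± 1.87, 31.5 ± 2.53 and 273 ± 4.67 CPM, which is 9.91 times the parental level in K148R and 1.14 times in K148Q cells. In bulk RNA, fewer or more cells in a given state and less or more RNA per cell cannot be told apart.

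One H2B gene, HIST1H2BK, took 26.5% of the parental, 44.7% of the K148Q and 45.2% of the K148R counts. Without it the sums were 20.3 ± 2.14 (parental), 17.4 ± 1.24 (K148Q) and 150 ± 2.8 CPM (K148R), or 7.37 times the parental level in K148R and 0.856 times in K148Q. The excess of K148Q over parental cells in the full sum lay in HIST1H2BK, and the other 71 genes together were lower in all 3 K148Q libraries (18.7, 17.2 and 16.2 CPM) than in any parental one (19.3, 22.8 and 18.9 CPM).

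All 5 histone types were higher in K148R cells, as the plot of summed CPM by type shows. The H2B genes were at 13.2 ± 0.5 CPM in parental and 177 ± 1.65 in K148R cells, 13.4 times as much. Without HIST1H2BK the other 19 H2B genes were at 5.92 ± 0.816 and 53 ± 4.21 CPM, 8.94 times as much, which is below the H3 ratio. The H3 genes were at 9.64 times (1.81 ± 0.497 to 17.5 ± 0.66 CPM), the H1 genes at 7.85 times (4.26 ± 0.499 to 33.4 ± 1.25), the H4 genes at 6.82 times (1.25 ± 0.239 to 8.5 ± 0.791) and the H2A genes at 5.28 times (7.08 ± 0.645 to 37.4 ± 3.34). In K148Q cells the H2B sum was 1.43 times the parental value, or 0.793 times without HIST1H2BK, and the H1 sum 1.21 times. The H2A, H3 and H4 sums were 0.745, 0.796 and 0.667 times the parental values. By cluster, the K148R sum was 10.4 times the parental one for HIST1, 12.5 times for HIST2 and 2.76 times for HIST3.

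**Figure D1:**
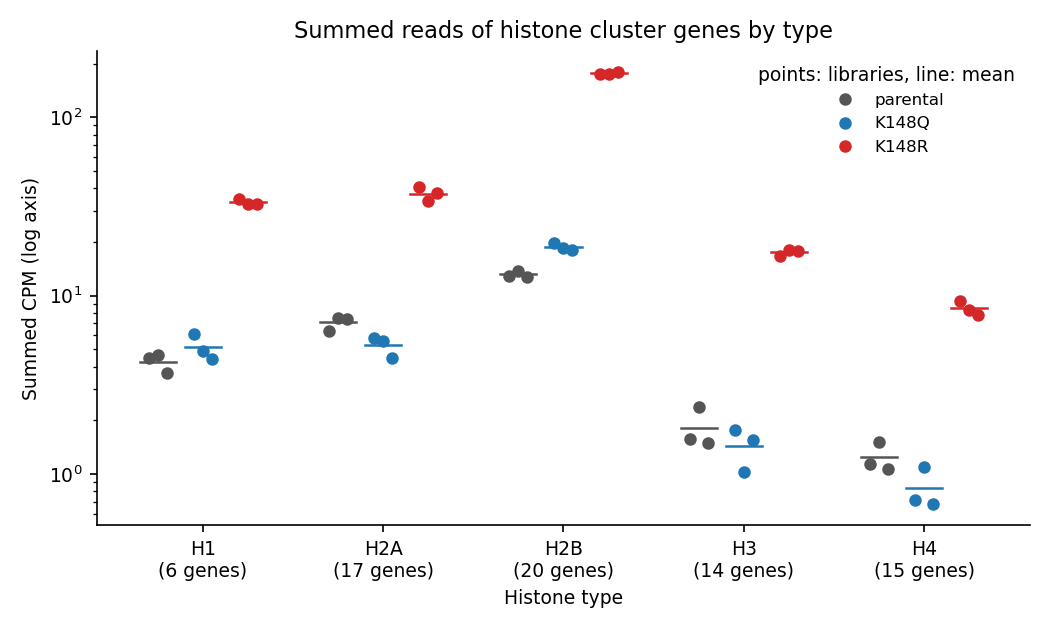
Summed CPM of the clustered histone genes of each type (log axis) in each library, with a line at the mean of the 3 libraries of a genotype. For every type the 3 K148R libraries lie above all parental and K148Q libraries, and the H2B genes are the highest type in each genotype.

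Of the 72 genes, 11 had 0 counts in all libraries (HIST2H2BA, HIST2H4A, HIST2H4B, HIST2H3A, HIST2H3C, HIST2H2AA3, HIST2H2AA4, HIST3H3, HIST1H2AA, HIST1H2BA and HIST1H1A). HIST2H3A and HIST2H3C have identical transcript models, as do HIST2H4A and HIST2H4B, and at most 2.9% of the 50-base windows of HIST2H3A, HIST2H3C, HIST2H4A, HIST2H4B, HIST2H2AA3 and HIST2H2AA4 are found in no other gene, so for these 6 a 0 says nothing about expression if shared reads were dropped. Another 3 genes had 1 to 9 counts (HIST1H1T, HIST1H2AD and HIST1H4G). A mean of at least 1 CPM was reached by 5 genes in parental cells, 4 in K148Q and 30 with K148R. Genes with a count in every library of a genotype numbered 36 in parental cells, 33 in K148Q and 57 with K148R. Of the 61 genes with any count, the mean was higher in K148R than in parental cells for 58 and lower for 3, and it was higher in K148R than in K148Q cells for all 61. Against parental cells the K148Q mean was higher for 19 and lower for 38.

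The comparison of K148R with parental cells gave 31 genes called higher, 1 lower (HIST1H2BH) and 1 not past the threshold (HIST2H2AC) among the 33 that passed the filter on low counts. Over all 12845 genes tested, 75.1% were called, 37.8% higher and 37.3% lower. A gene can pass that filter on the reads of 1 genotype alone, so genes high only in K148R had to differ, and the count over the genes that passed is a description. With all 58 genes of 10 or more counts in the fit, 46 were called higher and 1 lower, against 68.5% called among 14998 genes, 34.6% higher and 33.9% lower, and this threshold also leans toward K148R. All 3 K148R libraries were above all 3 parental libraries for 45 of the 58 genes and below them for 0, while the groups did not overlap for 74.8% of the 14998 genes, with K148R above for 38.5%. The median log2 fold change was 2.93 over the 58 genes and 0.015 over all 14998.

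K148R against K148Q cells gave 32 genes called higher and 0 lower of 33, with 71% of all tested genes called, 36.6% higher and 34.5% lower. The gene not past the threshold was HIST1H2BH. No gene was lower at an unadjusted p under 0.05 either, since all 33 fitted log2 fold changes were above 0, and DESeq2 and limma-voom also called 0 lower. Among the 58 genes with 10 or more counts, 52 were called higher (65.2% of the 14998 genes were called, 33.9% higher), and the libraries did not overlap for 50, all with K148R above (66.9% of the 14998 genes, 36.2% with K148R above). Both filters lean toward K148R here too. Genes read almost only in K148R cells had to differ, so these counts are descriptions.

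K148Q against parental cells gave 3 genes called higher (HIST1H2BK, HIST1H1C and HIST2H2BE) and 3 lower (HIST1H2BH, HIST1H1E and HIST1H2BI) of the 33, while 53.3% of all tested genes were called, 27% higher and 26.3% lower. With the 58 genes in the fit the calls were 3 higher and 4 lower, HIST1H2AJ being the added one (46.6% called among 14998 genes, 23.5% higher and 23.1% lower). The libraries did not overlap for 13 of the 58, 5 with K148Q above and 8 below, where 54.4% of all 14998 genes did not overlap, 26.7% above and 27.7% below. Against parental cells the 2 mutants share the same 3 parental libraries, so their values are given side by side below and their likeness was not measured.

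The 3 genes called higher in both mutants are described first. HIST1H2BK (chromosome 6, 27146418 to 27146798 in GENCODE), which encodes an H2B of nucleosome cores, was at 7.18, 6.94 and 7.63 CPM in the parental libraries, 15.4, 13.9 and 12.9 CPM in the K148Q libraries, against 125, 117 and 128 CPM in the K148R libraries. The 3 genotypes did not overlap in any library, and K148Q lay between the other 2. Its log2 fold change was 0.95 (SE 0.099, adjusted p = 1.8e-06) in K148Q and 4.09 (SE 0.089, adjusted p = 2.1e-14) in K148R against parental cells, and 3.13 (adjusted p = 1.5e-13) in K148R against K148Q. In these transcript models 25.9% of its 50-base windows are found in no other gene, the rest being shared most often with H2BFS, HIST1H2BE and HIST1H2BO. Its count therefore depends on how shared reads were assigned.

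HIST1H1C (chromosome 6, 26055787 to 26056428), the gene of the linker histone H1.2, was at 3.2, 3.62 and 3.34 CPM in the parental libraries, 5.87, 4.72 and 4.28 CPM in the K148Q libraries, against 31.9, 29.6 and 30.4 CPM in the K148R libraries. Its genotypes did not overlap either, and all of its 50-base windows are unique. It rose by a log2 fold change of 0.55 (SE 0.15, adjusted p = 0.0063) in K148Q and 3.18 (SE 0.12, adjusted p = 7.8e-12) in K148R cells. HIST2H2BE (chromosome 1, 149884459 to 149886652), an H2B gene, had 7, 3 and 7 counts in the parental, 7, 14 and 18 in the K148Q and 323, 346 and 344 in the K148R libraries. Scaled to depth, the lowest K148Q library (0.46 CPM) was just above the highest parental one (0.42 CPM), and the K148R libraries were far above both. Its log2 fold change was 1.22 (SE 0.44, adjusted p = 0.03) in K148Q and 5.82 (SE 0.25, adjusted p = 2.2e-11) in K148R cells. In K148Q cells the call for HIST2H2BE was lost with limma-voom (adjusted p = 0.076) and when parental replicate 2 (0.096), parental replicate 3 (0.052), K148Q replicate 2 (0.079) or K148Q replicate 3 (0.092) was left out. With only parental and K148Q libraries fitted, HIST2H2BE did not pass the filter on low counts and was not tested.

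HIST1H2BH (chromosome 6, 26251651 to 26253710), another H2B gene, was called lower in both mutants and was the third highest of all 72 genes in parental CPM. It had 45, 42 and 38 counts in the parental, 20, 18 and 16 in the K148Q and 20, 40 and 13 in the K148R libraries. In CPM the K148Q libraries were all below the parental ones, but K148R replicate 2 (2.71 CPM) lay within the parental range of 2.26 to 3.04 CPM and the other K148R libraries were at 1.09 and 0.805 CPM. The log2 fold change was -1.17 (SE 0.35, adjusted p = 0.011) in K148Q and -0.83 (SE 0.33, adjusted p = 0.035) in K148R cells. The K148R call was lost with DESeq2 (adjusted p = 0.06) and when parental replicate 1 (0.076), parental replicate 2 (0.099), K148R replicate 1 (0.14) or K148R replicate 3 (0.15) was left out, and its direction stayed the same in these fits.

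HIST1H1E and HIST1H2BI fell in K148Q and rose in K148R cells. HIST1H1E, the gene of the linker histone H1.4, had 10, 5 and 5 counts in the parental, 2, 2 and 1 in the K148Q and 32, 15 and 23 in the K148R libraries. HIST1H2BI, an H2B gene, had 3, 3 and 1 parental counts, 0 in all 3 K148Q libraries and 26, 14 and 22 K148R counts. For both genes the 3 genotypes did not overlap, in the order K148Q, parental, K148R. HIST1H1E changed by a log2 of -1.89 (SE 0.62, adjusted p = 0.02) in K148Q and 1.72 (SE 0.36, adjusted p = 0.00049) in K148R cells, and K148R was above K148Q by 3.61 (adjusted p = 8.4e-06). HIST1H2BI was called lower in K148Q (adjusted p = 0.02) and higher in K148R cells (log2 fold change 3.01, SE 0.47, adjusted p = 6.6e-05), and it was at least 19.3-fold higher in K148R than in K148Q, against a floor of 3 counts over the group. The K148Q call of HIST1H1E was lost without parental replicate 1 (adjusted p = 0.097) or K148Q replicate 3 (0.063), and that of HIST1H2BI without parental replicate 1 (0.054) or parental replicate 2 (0.056). With only parental and K148Q libraries fitted, neither gene passed the filter on low counts, so both K148Q calls depend on having the K148R libraries in the fit.

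**Figure D2:**
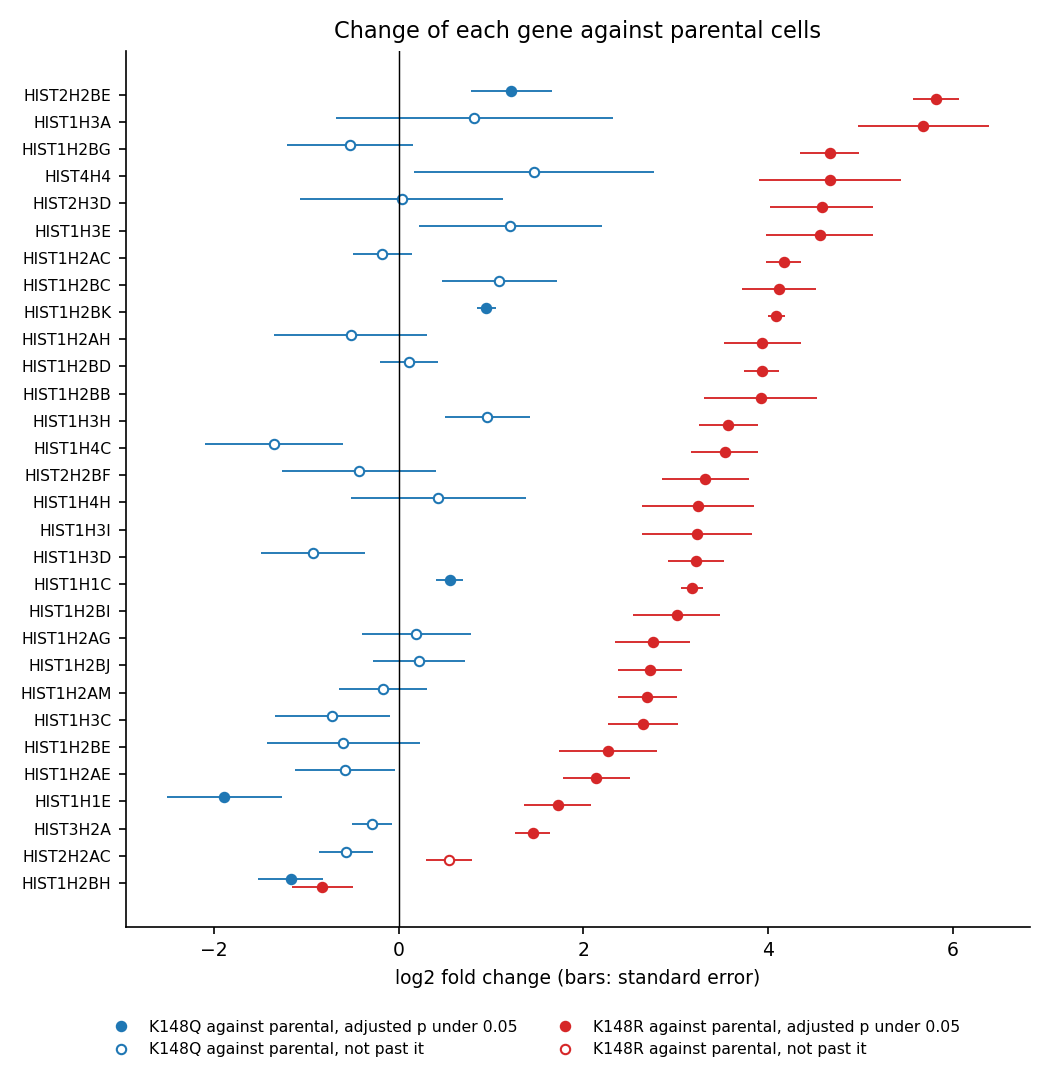
log2 fold change against parental cells (horizontal axis, bars give the standard error) of the 30 genes with a mean of at least 1 CPM in a genotype, for K148Q (blue) and K148R (red), with filled points past an adjusted p of 0.05. K148Q points are left out for HIST1H2BB, HIST1H3I and HIST1H2BI, which had 0 K148Q counts, and all K148R points but those of HIST2H2AC and HIST1H2BH are filled and above 0.

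Other H2B genes rose in K148R cells without a call in K148Q. HIST1H2BD had 12, 9 and 15 counts in the parental, 10, 10 and 18 in the K148Q and 202, 185 and 188 in the K148R libraries. HIST1H2BG had 3, 4 and 2, then 2, 3 and 1, then 88, 88 and 72 counts in the same order. HIST1H2BC had 1, 3 and 4, then 3, 10 and 4, then 55, 47 and 50 counts. In these 3 genes each K148R library was many times above every other library, with log2 fold changes against parental cells of 3.93 (adjusted p = 1.1e-10), 4.67 (adjusted p = 4.2e-09) and 4.12 (adjusted p = 2.4e-07). HIST1H2BJ had 5, 5 and 4 parental, 4, 3 and 9 K148Q and 40, 26 and 33 K148R counts. HIST2H2BF had 3, 3 and 1, then 2, 2 and 1, then 38, 15 and 24 counts. HIST1H2BE had 1, 7 and 3, then 4, 1 and 2, then 25, 21 and 11 counts. These 3 rose by log2 fold changes of 2.72, 3.32 and 2.27, and in HIST1H2BE 69.5% of the 50-base windows are unique. HIST1H2BB had 1, 0 and 2 parental, 0 K148Q and 25, 12 and 16 K148R counts, a ratio of K148R to parental counts per depth of 16.9 (95% interval 5.48 to 84.7), and K148R was at least 16.5-fold above K148Q.

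The H2A genes encode the partner of H2B in the nucleosome core, and 7 of the 8 tested rose in K148R cells (37.8% of all tested genes rose). Of the 13 with 10 or more counts, 10 were called higher (34.6% of the 14998 genes). Both filters lean toward K148R, so these counts are descriptions. HIST1H2AC (chromosome 6, 26124145 to 26139116) was at 0.66, 0.72 and 1.25 CPM in the parental, 0.72, 0.75 and 0.87 CPM in the K148Q and 17.7, 14.2 and 16.3 CPM in the K148R libraries. Parental and K148Q libraries overlapped, and K148R was above parental cells by a log2 fold change of 4.17 (SE 0.19, adjusted p = 5.3e-11). HIST3H2A (chromosome 1, 228456979 to 228457873), at 2.05, 2.03 and 2.98 CPM in the parental, 2.22, 2.12 and 1.49 CPM in the K148Q and 6.91, 6.17 and 6.32 CPM in the K148R libraries, rose by 1.45 (SE 0.19, adjusted p = 4.8e-06). HIST2H2AC had 20, 18 and 20 counts in the parental, 13, 11 and 14 in the K148Q and 38, 19 and 32 in the K148R libraries. K148R replicate 2, at 1.29 CPM, lay within the parental range of 1.19 to 1.3 CPM, and the log2 fold change of 0.54 (SE 0.25, adjusted p = 0.058) did not pass the threshold. Without K148R replicate 2 it was 0.71 and passed (adjusted p = 0.012). Against K148Q cells HIST2H2AC was higher in K148R by 1.12 (SE 0.27, adjusted p = 0.0018).

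The remaining H2A genes had fewer reads. HIST1H2AM had 10, 9 and 4 parental, 6, 9 and 5 K148Q and 64, 36 and 58 K148R counts. HIST1H2AG had 1, 9 and 7, then 9, 7 and 3, then 47, 35 and 40 counts. HIST1H2AH had 1, 4 and 1, then 1, 1 and 2, then 41, 30 and 31 counts. HIST1H2AM overlaps HIST1H3J, and 13.7% of its 50-base windows are unique, so its reads cannot be placed with certainty. HIST1H2AE had 4, 11 and 5 parental, 5, 5 and 3 K148Q and 38, 25 and 31 K148R counts. The K148R libraries of these 4 genes were above all others, with log2 fold changes against parental cells between 2.14 for HIST1H2AE and 3.94 for HIST1H2AH, and none was called in K148Q.

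Of the H3 genes, whose product carries many of the studied chromatin marks, HIST1H3H had the most reads, with 3, 2 and 9 in the parental, 9, 7 and 11 in the K148Q and 65, 52 and 60 in the K148R libraries. It rose by a log2 fold change of 3.57 (SE 0.32, adjusted p = 1.1e-07) in K148R cells, and in K148Q cells its value of 0.96 did not pass (adjusted p = 0.091) but did so with limma-voom (0.049) and without parental replicate 3 (0.012). HIST1H3D had 7, 3 and 4 parental, 2, 3 and 2 K148Q and 52, 46 and 41 K148R counts. All of its 50-base windows also occur in the overlapping transcript AL031777.3. HIST1H3C had 6, 9 and 2 parental, 5, 2 and 3 K148Q and 37, 41 and 35 K148R counts. HIST1H3I had 1, 6 and 1 parental, 0 K148Q and 19, 37 and 25 K148R counts, so that K148R was at least 25.3-fold above K148Q. In K148Q against parental cells HIST1H3I was not called (adjusted p = 0.063), and it was called lower without K148Q replicate 3 (0.048) or K148R replicate 2 (0.049), with DESeq2 (0.014), with limma-voom (0.037), with the replicate block (0.019) and with no filter (0.035). HIST2H3D had 1, 2 and 0, then 2, 1 and 0, then 38, 23 and 23 counts. HIST1H3A had 0, 0 and 1, then 1, 0 and 1, then 23, 16 and 34 counts. HIST1H3E had 1, 0 and 1, then 2, 1 and 2, then 24, 12 and 22 counts. These 3 were nearly unread outside K148R cells, and their count ratios of K148R to parental cells were 26.8 (95% interval 8.87 to 133), 69.9 (12.2 to 2800) and 27.8 (7.35 to 235). In HIST2H3D 19.6% of the 50-base windows are unique.

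The H4 genes were the least read type. HIST1H4C had 1, 6 and 4 counts in the parental, 1, 1 and 2 in the K148Q and 50, 40 and 47 in the K148R libraries, a log2 fold change of 3.53 (SE 0.36, adjusted p = 4.3e-07) in K148R cells. In K148Q cells its value of -1.35 did not pass (adjusted p = 0.14), and without parental replicate 1 it was -1.83 and did (0.04). HIST1H4H had 1, 0 and 5 parental, 3, 1 and 4 K148Q and 24, 26 and 12 K148R counts. HIST4H4 had 2, 0 and 0, then 0, 4 and 2, then 31, 20 and 12 counts. Both rose in K148R cells, HIST1H4H by a log2 fold change of 3.24 (adjusted p = 0.00022) and HIST4H4 with a count ratio of 30.2 (95% interval 8.01 to 255).

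**Figure D3:**
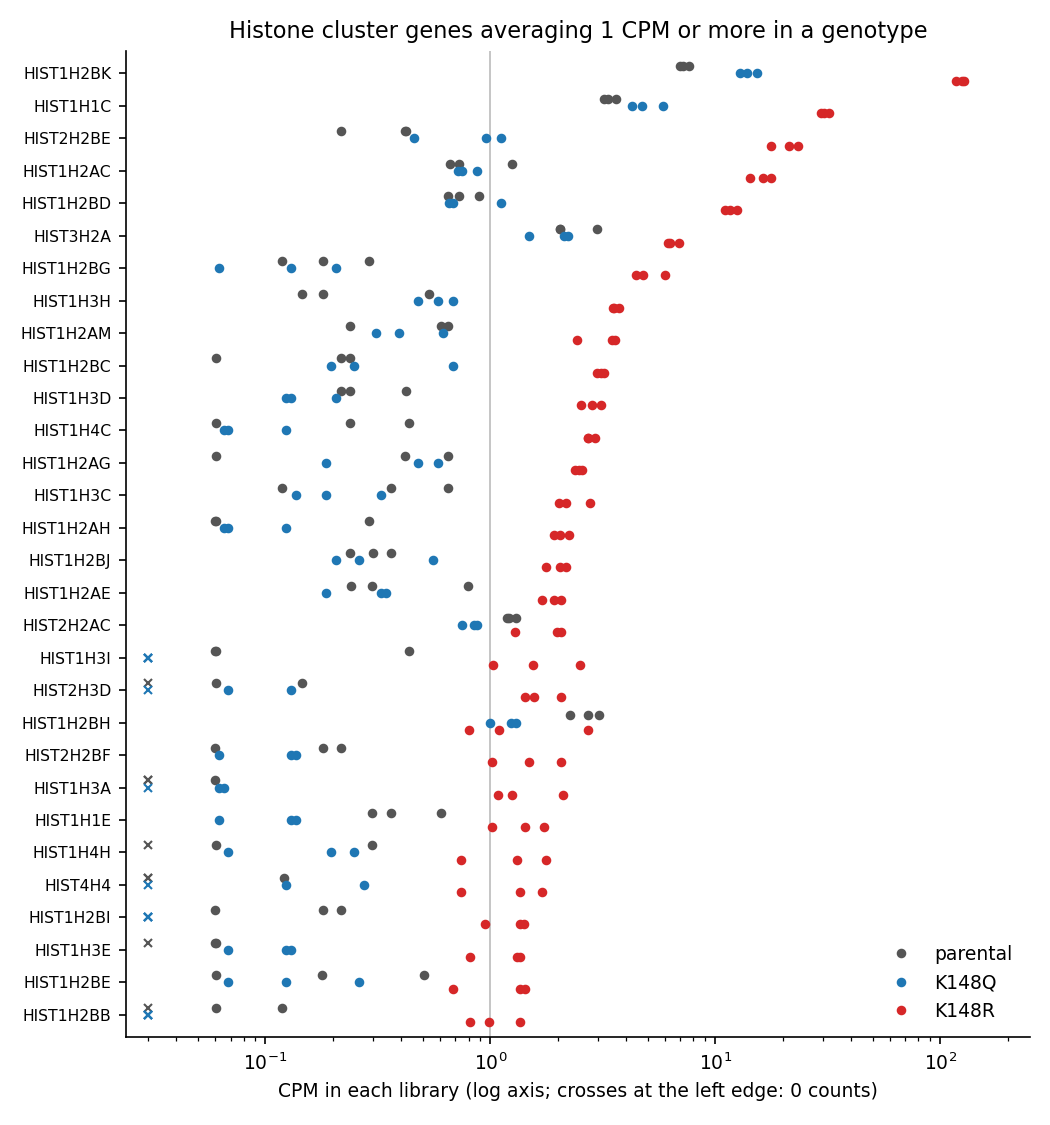
CPM in each library (log axis) of the 30 clustered histone genes that averaged 1 CPM or more in a genotype, ordered by their K148R mean, with crosses at the left edge for libraries with 0 counts and a grey line at 1 CPM. The K148R points lie to the right of all others except for HIST2H2AC and HIST1H2BH, where K148R and parental libraries overlap.

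The other 28 genes with 10 or more counts stayed below a mean of 1 CPM in every genotype and had between 12 and 66 counts in all. The 6 with the most reads were HIST1H1B (H1.5), HIST1H2AJ, HIST1H2BL, HIST1H2AI, HIST1H3J and HIST1H2BN. HIST1H1B had 7, 6 and 1 counts in the parental, 2, 1 and 1 in the K148Q and 17, 23 and 8 K148R counts. HIST1H2BL had 3, 4 and 4, then 2, 2 and 3, then 24, 5 and 13 counts. HIST1H2AI had 4, 0 and 4, then 3, 3 and 0, then 14, 18 and 13 counts. In each of these 3 genes the K148R counts summed to more than in either other genotype, although the lowest K148R library of HIST1H2BL was close to the parental ones. HIST1H3J had 1, 1 and 2, then 0, 0 and 3, then 17, 13 and 11 counts. HIST1H2BN had 2, 3 and 3, then 5, 2 and 1, then 16, 10 and 5 counts. In the fit of the 14998 genes with 10 or more counts, these 5 were called higher in K148R than in parental cells (adjusted p = 0.013, 0.0069, 0.0028, 0.00042 and 0.014). HIST1H2AJ went another way, with 14, 7 and 9 counts in the parental, 4, 2 and 3 in the K148Q and 7, 6 and 11 in the K148R libraries. It was lower in all K148Q libraries than in any parental one (log2 fold change -1.66, adjusted p = 0.015 in that fit), its K148R libraries overlapped the parental ones, and 16.3% of its 50-base windows are unique, most of the others being shared with HIST1H2AI. HIST1H4D and HIST1H2AJ, with HIST1H2BH, were the 3 genes whose mean was lower in K148R than in parental cells. HIST1H4D, singled out after its values were seen, had 12 parental, 8 K148Q and 11 K148R counts, 9 of the 11 in 1 library.

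Level can be compared between genes only per length of transcript. Per kilobase of GENCODE exon, HIST1H2BK stood at 19 CPM in parental and 324 CPM in K148R cells, followed in both by HIST1H1C at 5.27 and 47.8 CPM. HIST2H2AC was next in parental cells at 3.16 CPM per kilobase, and HIST1H2BD in K148R cells at 13.5 CPM per kilobase. GENCODE gives HIST1H2BK 381 exon bases, RefSeq's gene is longer and the sources used here do not name the annotation counted, so its level per kilobase is uncertain.

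Many H2A and H2B genes stand head to head, with transcripts leaving a shared stretch of promoter in opposite directions. There were 12 such pairs with starts at most 500 bases apart, 9 of them with 10 or more counts for both genes. HIST2H2BE and HIST2H2AC are separated by 322 bases (chr1:149886653-149886974), which contain the HIST2H2BE promoter printed above. The ratio of K148R to parental reads per depth was 57.1 (95% interval 35.5 to 98.4) for HIST2H2BE and 1.47 (1.04 to 2.08) for HIST2H2AC. In parental cells the H2A partner had more reads (58 against 17 counts), in K148Q cells the 2 were nearly equal (38 against 39) and in K148R cells the H2B partner had more (89 against 1013). The log2 ratio of H2B to H2A counts within a library, with 0.5 added to each, was -1.77 ± 0.55 in parental cells, -0.05 ± 0.69 in K148Q and 3.54 ± 0.55 with K148R, with no overlap between genotypes.

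HIST1H2BG and HIST1H2AE, 282 bases apart, also differed, with K148R to parental ratios of 26.4 (95% interval 13.7 to 58.4) and 4.5 (2.76 to 7.7). Their log2 ratio of H2B to H2A went from -0.95 ± 0.52 in parental and -1 ± 0.31 in K148Q to 1.4 ± 0.34 in K148R cells. In 3 pairs both genes had similar ratios: HIST1H2BC and HIST1H2AC 18.2 each, HIST1H2BJ and HIST1H2AG 6.77 and 6.87, HIST1H2BK and HIST1H2AH 17 and 16.3. Of the 4 pairs with fewer reads, HIST1H2AJ at 0.766 (0.429 to 1.36) and HIST1H2BM at 20.1 (3.23 to 832) had intervals that did not overlap. The intervals overlapped for HIST1H2AM at 6.58 (4.23 to 10.7) and HIST1H2BO at 19.2 (4.97 to 164), for HIST1H2BL at 3.66 (1.85 to 7.88) and HIST1H2AI at 5.39 (2.51 to 13.2), and for HIST3H2A at 2.74 (2.2 to 3.42) and HIST3H2BB at 3.19 (0.822 to 18.1). Across the 5 pairs whose members both reached 1 CPM, the change of the H2B to H2A log2 ratio between parental and K148R libraries was 5.31 for HIST2H2BE and HIST2H2AC, 2.35 for HIST1H2BG and HIST1H2AE, and between -0.42 and 0.17 for the other 3. A two-sided exact permutation test of 3 against 3 libraries cannot go below p = 0.1, and the first 2 pairs reached that value, the others giving p = 0.8, 1 and 1.

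**Figure D4:**
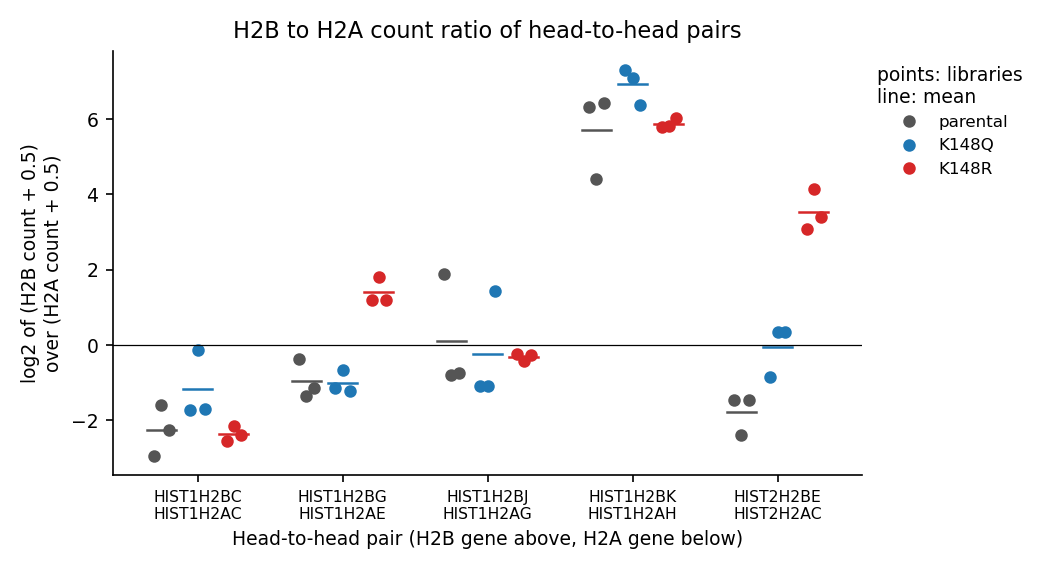
log2 ratio of H2B to H2A counts, with 0.5 added to each, within every library for the 5 head-to-head pairs whose genes both reach 1 CPM, with a line at the mean of each genotype. The ratio is higher in all K148R libraries for HIST1H2BG with HIST1H2AE and for HIST2H2BE with HIST2H2AC, where K148Q lies between parental and K148R, while in the other 3 pairs K148R and parental libraries overlap.

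Genes known for polyadenylated transcripts were compared with the rest of the family. The list holds 18 of the 72 genes, HIST1H2BK, HIST1H1C, HIST2H2BE, HIST1H2AC and HIST1H2BD among them, and it was written with earlier results of these data known, so it is no independent evidence. Their summed level was 15.3, 15.5 and 17.7 CPM in the parental, 26.7, 24.9 and 23.2 CPM in the K148Q and 228, 220 and 228 CPM in the K148R libraries. The other 54 genes summed to 11.2, 14.2 and 8.82 CPM in the parental, 7.43, 6.22 and 5.89 CPM in the K148Q and 49.6, 48.3 and 46.4 CPM in the K148R libraries. In K148Q cells the 2 sums thus moved apart: that of the listed genes was above, and that of the others below, every parental library. Most of the rise of the listed sum lay in HIST1H2BK (mean 7.25 CPM in parental and 14.1 CPM in K148Q cells) and HIST1H1C (3.38 and 4.95 CPM). The means of the other listed genes with counts went in both directions. The ratio to parental cells was 1.54 for the listed and 0.571 for the other genes in K148Q, and 13.9 and 4.21 in K148R. Without HIST1H2BK, the listed genes summed to 8.91 ± 1.02 CPM (parental), 10.9 ± 0.476 CPM (K148Q) and 102 ± 1.29 CPM (K148R). The 3 histone genes called higher in K148Q cells are all on the list, and the 3 called lower are not. Of the 13 listed genes tested, 3 were thus called higher and 0 lower, against 27% and 26.3% of all tested genes.

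Some other RNAs that lack a poly(A) tail also rose in K148R cells. RN7SK, the 7SK RNA that holds back the elongation factor P-TEFb, was at 6.45, 16 and 4.17 CPM in the parental, 7.43, 4.51 and 3.72 CPM in the K148Q and 523, 496 and 435 CPM in the K148R libraries (log2 fold change 5.82, SE 0.38, adjusted p = 1.7e-06). Of 29 such RNAs 8 were tested, of which 5 rose and 0 fell in K148R cells, against 37.8% and 37.3% of all tested genes. RNU2-1, RNU11 and RNU6ATAC passed the filter through their K148R reads, so they had to differ and this count is a description. Of the 16 with 10 or more counts, 10 rose and 0 fell (34.6% and 33.9% of the 14998 genes), a threshold that also leans toward K148R. In K148Q cells 0 rose and 1 fell. The 3 that did not pass in K148R cells, named after their values were seen, were RN7SL1 of the signal recognition particle (log2 fold change 0.83, adjusted p = 0.078), RMRP (0.5, adjusted p = 0.27) and RPPH1 of RNase P (0.96, adjusted p = 0.099). RNU2-1, the U2 spliceosomal RNA, went from 0.0397 ± 0.0688 to 2.5 ± 0.88 CPM in K148R cells, RNU11 from 0.0723 ± 0.125 to 1.11 ± 0.162 CPM and RNU6ATAC from 0.329 ± 0.237 to 0.918 ± 0.0853 CPM. All 29 together summed to 13.4 to 45.4 CPM in the parental, 12.8 to 17.5 CPM in the K148Q and 464 to 581 CPM in the K148R libraries, where RN7SK made up most of the sum. RNU7-1, the U7 RNA of histone mRNA processing, was 1 of 7 of the 29 RNAs at 0 counts in every library, with RNU1-1, RNU6-1 and RNU6-2. Absence of such an RNA cannot be told here from reads that were not captured or not assigned.

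Small nucleolar and Cajal body RNAs went in both directions. Of 95 tested, 20 rose and 31 fell in K148R cells, against 37.8% and 37.3% of all tested genes. Their summed level was 172 to 185 CPM in the parental, 132 to 150 CPM in the K148Q and 171 to 173 CPM in the K148R libraries. Among them SCARNA10, a Cajal body RNA, went from 0.168 ± 0.0203 to 3.75 ± 0.286 CPM, SCARNA9 from 0.392 ± 0.24 to 3.92 ± 0.466 CPM and SCARNA2 from 0.128 ± 0.0143 to 3.01 ± 0.904 CPM, while SNORA8 fell from 4.82 ± 0.436 to 1.42 ± 0.228 CPM. SNORA73A and SNORA73B were called in no comparison, at 2.25 ± 0.446 and 2.47 ± 0.236 CPM in parental and 2.43 ± 0.216 and 1.98 ± 0.45 CPM in K148R cells. The sources used here do not say whether poly(A) RNA was selected, and the part of RNA composition in the histone result was not tested.

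The genes of S phase, when clustered histone genes are normally transcribed, moved against them. All 20 tested fell in K148R cells (37.3% of all tested genes fell), with a median log2 fold change of -3.1 against -0.003 over all genes, and their summed level was 7120 to 7160 CPM in the parental, 6500 to 6840 CPM in the K148Q and 991 to 1000 CPM in the K148R libraries. MCM4 and MCM6, subunits of the replicative helicase, fell by 3.05 and 3.72 on the log2 scale, RRM1, a subunit of ribonucleotide reductase, fell by 3.11 and TYMS, thymidylate synthase, fell by 3.23. In K148Q cells 2 of the 20 rose and 6 fell (27% and 26.3% of all tested genes), with a median of -0.06. The part of cell cycle state in the histone result was not tested.

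The machinery that transcribes histone genes and cuts their mRNAs was mostly lower in K148R cells. SLBP, the stem-loop binding protein, was at 218, 224 and 221 CPM in the parental, 179, 183 and 197 CPM in the K148Q and 73.9, 77.1 and 77.7 CPM in the K148R libraries. NPAT, the coactivator of histone genes in S phase, was at 49, 45.9 and 46.8 CPM, then 23.5, 25 and 33.5 CPM, then 19.2, 19.4 and 20.2 CPM. Both fell in both mutants with no overlap between genotypes, by 0.24 (adjusted p = 0.0016) and 0.79 (adjusted p = 3.4e-05) on the log2 scale in K148Q and by 1.53 (adjusted p = 3.8e-12) and 1.27 (adjusted p = 8.8e-08) in K148R cells. Of 28 genes of the list 21 fell and 4 rose in K148R cells, against 37.3% and 37.8% of all tested genes. In K148Q cells 8 fell and 6 rose, against 26.3% and 27% of all. CDK2, the kinase that acts on NPAT, fell by 2.99, its cyclin CCNE1 by 1.83 and CASP8AP2 by 2.28 on the log2 scale in K148R cells. ZCCHC6, a terminal uridylyltransferase named here after its values were seen, was among the 4 that rose, from 22.3 ± 0.726 to 64.2 ± 3.01 CPM.

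Histone chaperones, which carry histones to and from DNA, fell in 20 and rose in 3 of 25 cases in K148R cells (37.3% and 37.8% of all tested genes). In K148Q cells they fell in 8 and rose in 7 cases (26.3% and 27% of all). ASF1B fell by 3.25, MCM2 by 3.09, NASP by 2.21 and DNAJC9 by 2.48 on the log2 scale in K148R cells. HIRA, of the pathway that deposits H3.3 outside replication, was not called in any comparison, at 112 ± 0.972, 116 ± 10.3 and 121 ± 4.08 CPM in parental, K148Q and K148R cells, and neither was SPTY2D1, at 50.1 ± 3.19, 50.2 ± 5.08 and 51.4 ± 0.746 CPM.

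The replication-independent histone variants, most of whose mRNAs are polyadenylated, went in both directions. Of 11 tested, 5 rose and 6 fell in K148R cells (37.8% and 37.3% of all tested genes), and 6 rose and 1 fell in K148Q cells (27% and 26.3%). H1F0, the linker variant H1.0 of non-dividing cells, rose from 5.48 ± 0.928 CPM to 12.3 ± 0.0624 in K148Q (adjusted p = 3.3e-06) and 19.2 ± 1.32 CPM in K148R cells (adjusted p = 4.7e-09). H2AFZ, which encodes H2A.Z, fell from 528 ± 7.76 to 111 ± 3.4 CPM in K148R cells, and CENPA, the centromeric H3, from 42 ± 1.34 to 9.73 ± 1.08 CPM. H2AFX, which encodes H2A.X and whose mRNA is also made in a stem-loop form, fell by 1.14 on the log2 scale in K148R cells (adjusted p = 5.1e-09). In every genotype the summed CPM of the variants (2370 to 2450, 2540 to 2610 and 2160 to 2170) far exceeded that of the 72 clustered genes. The clustered sum was at its highest in K148R cells, at 273 CPM. These sums are not scaled to transcript length, and clustered histone mRNAs usually carry no poly(A) tail. Whether poly(A) RNA was selected is not stated, so the gap in CPM does not give the relative amounts of these mRNAs. H3F3A was listed at 0 in all libraries. The treatment of reads that match several genes is not given, so this 0 does not show that the gene was silent, and the sum of the variants may be incomplete.

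**Figure D5:**
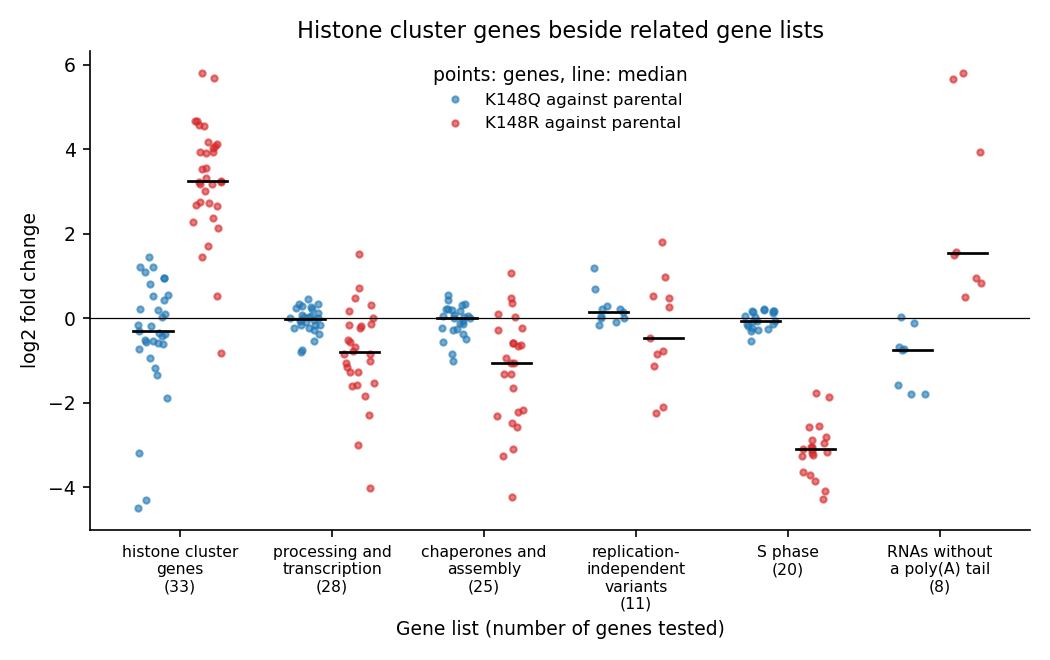
log2 fold change of each tested gene (points) and the median (black lines) for the clustered histone genes and 5 related lists, in K148Q (blue) and K148R (red) against parental cells, with the number of genes tested under each name. The clustered histone genes and RNAs without a poly(A) tail lie mostly above 0 in K148R while S phase genes all lie below it, and the 3 lowest K148Q histone points are genes with 0 K148Q counts, whose fitted values depend on the prior count.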

How the data were processed

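RNA sequencing of 9 libraries was analysed, 3 for each of 3 MYC genotypes taken from the labels. The deposited values are raw read counts per gene symbol. Tools listed in the submitters' processing notes are HISAT2 2.0.5, featureCounts 1.5.2 and FastQC 0.11.7, with build GRCh38. The sources used here do not give the strand, the annotation or the treatment of reads that match several genes. The test was that of edgeR 4.0.16, run under R 4.3.3 (filterByExpr by group, TMM scaling, robust quasi-likelihood F test, all 9 libraries in 1 fit). DESeq2 1.42.0, limma 3.58.1, other filters and scalings, a replicate block and leaving out each library were tried as alternatives, and the fit was tested on simulated data. Stem-loops, windows of 50 bases and positions came from GENCODE v29, promoters from RefSeq, matched by older symbol and position, with the listed start nearest each member's gene model. Shares over all promoters use the first listed start of each gene. Intervals and floors (3 counts) cover only counting error.

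The members and gene lists were chosen with earlier results of these data known. Every member with a mean of at least 1 CPM in a genotype was named with the value of each library, as were the 6 with the most counts below it. Of each related list, the 4 genes with the smallest p in K148R against parental cells, up to 2 called in no comparison, and SLBP, NPAT and RN7SK were named. Of the marker lists fewer were named than this rule asks. One marker is not reported here. Members with fewer than 10 counts were counted.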

Additional observations from a re-analysis of the deposited data

How the results depend on the processing

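The counts of histone genes called were recomputed under 19 alternatives. For K148R against parental cells, 31 genes called higher became 47 with no filter on low counts and 13 with a mean of at least 1 CPM over all libraries, where 15 of the genes were tested, and ranged from 32 to 36 when a library was left out. The 1 called lower became 0 with DESeq2 and with the 2-fold threshold, and 0 to 1 when a library was left out. For K148R against K148Q, 32 called higher became 52 with at least 10 counts, 53 with no filter and 14 with the 1 CPM filter, and 34 to 38 when a library was left out; 0 were lower in each. For K148Q against parental cells, 3 called higher became 0 with the 2-fold threshold and 2 to 3 when a library was left out. The 3 called lower became 6 with no filter, 1 with the 1 CPM filter, 0 with the 2-fold threshold and 1 with only those 2 genotypes fitted, and 2 to 5 when a library was left out, with 5 without parental replicate 3, K148R replicate 1 or K148R replicate 2. With only the parental and K148Q libraries fitted, HIST2H2BE, HIST1H1E and HIST1H2BI did not pass the filter on low counts. No called value of the 30 named genes changed sign. The summed level in K148R cells was 267 CPM with raw library totals, against 273, and 271 to 276 when a library was left out.

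Correlations of deviations ran from -0.02 to 0.27 between libraries of the same number and from -0.24 to 0.17 between libraries of different numbers. The highest value, 0.27, was between replicate 3 of K148Q and replicate 3 of K148R. Whether the numbers pair the libraries of the 2 mutants is therefore not settled. With a replicate block the calls were 31 higher and 1 lower for K148R against parental, 32 and 0 for K148R against K148Q, and 3 and 4 for K148Q against parental cells, HIST1H3I being the added one. Genes of a few counts per library limit the K148Q comparison: 22 of the 72 genes had 0 counts in K148Q and 16 in parental libraries.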
